A study of Mus musculus with 4 samples.

Results

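The genes described here encode the nuclear pore complex and the soluble carriers that move proteins and RNA through it. They were taken by symbol from a transcript table of 3T3-L1 cells: Nup, Kpna, Ipo, Xpo or Tnpo followed by a digit, with Kpnb1, Ran, Rangap1, Ranbp1, Ranbp2, Tpr, Ndc1 and Pom121. This gave 48 of 16709 listed symbols. 3T3-L1 is an established mouse fibroblast-like line that can form adipocytes and was used here as undifferentiated preadipocytes. One group received 25 µM Nutlin-3a for 24 h, a small molecule that keeps the ubiquitin ligase MDM2 from binding p53, and the other an equal amount of the vehicle DMSO, which the Nutlin-3a group carried too. Each group had 2 biological replicates, 4 RNA sequencing libraries in all, of 1 cell line in serum-supplemented medium. The comparison asks which transcripts differ once p53 is released from MDM2.

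The nuclear pore is built from many copies of nucleoporins. An outer Y-shaped complex and an inner ring form its scaffold, membrane proteins anchor it, and nucleoporins rich in phenylalanine-glycine (FG) repeats fill the channel and extend to either side. Importins and exportins bind cargo and pass through the FG repeats, and the small GTPase Ran sets the direction: it is loaded with GTP in the nucleus and its GTP is hydrolysed in the cytoplasm.

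The deposited values are FPKM (fragments scaled to transcript length and to the mapped fragments of a library), with 1 value per transcript and group. FPKM of a symbol's transcripts was summed. No value per library was used, so replicate spread could not be weighed, no p-value was computed, and "higher" and "lower" describe the authors' group values alone. A log2 ratio is log2 of (FPKM + 1) in Nutlin-3a over the same in DMSO, a scale on which low-level genes appear closer to 0, and a fold is the plain ratio of FPKM. Genes with a mean FPKM of at least 1 and a value above 0 in both groups were compared, 10331 in all, and a gene counted as higher or lower when its log2 ratio passed 2-fold. Of the 48 genes, 45 met these conditions. The exceptions were Nup210, a membrane nucleoporin (0.186 FPKM in Nutlin-3a, listed at 0 in DMSO), its relative Nup210l (0.138 against 0.0368 FPKM), and the importin alpha gene Kpna7 (0.0268 against 0.0222 FPKM).

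As a check of the labels, the p53 target Cdkn1a had 386 FPKM with Nutlin-3a and 35.2 FPKM with DMSO, and the p53 target Ccng1 had 200 against 22.3 FPKM. Mdm2, which encodes the protein that the compound binds, is itself a known p53 target, yet it had a listed value of 0 with Nutlin-3a, against 773 FPKM with DMSO. This goes against the direction of the other 2 targets, and no ratio is given for it, since an estimate that failed can also be listed as 0. Of 10 preadipocyte and fibroblast markers 9 were compared and 5 of them were at least 2-fold lower in Nutlin-3a, and their summed level was 2427 against 5212 FPKM, of which the vimentin gene Vim made up 1181 and 3169 FPKM. Dlk1 was the only 1 of the 9 with a log2 ratio above 0, with 623 against 513 FPKM, while Pdgfra had 9.14 against 30.0 FPKM. Fewer cells of a type and less RNA per cell cannot be told apart in such data. Cd34, another marker of these cells, had 0.0187 and 0.186 FPKM. Summed markers of other cell types were 8.05 against 3.51 FPKM for 4 listed of 6 macrophage genes, with Ptprc at 0.0618 FPKM and 0, and 4.27 against 4.90 FPKM for 3 muscle genes, with Myod1 and Myog listed at 0 in DMSO. They were 0.472 against 0.139 FPKM for 3 listed of 4 epithelial genes and 1.72 against 0.174 FPKM for 3 listed of 4 endothelial genes, with Epcam and Kdr listed at 0 in DMSO. Pecam1 made up 1.57 and 0.0260 FPKM of the endothelial sum, and Tek went the other way, with 0.102 against 0.148 FPKM. Cd68 made up 6.52 and 2.91 FPKM of the macrophage sum, and Des 4.15 and 4.90 FPKM of the muscle sum. The 6 adipocyte genes summed to 33.8 against 96.6 FPKM, nearly all of it Fabp4 and Lpl, with Adipoq at 0.840 against 0.0409 FPKM. The part of these differences in the results below was not tested.

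Transcripts of the pore and its carriers were mostly present at somewhat higher levels in Nutlin-3a, and few differed by much. The import receptor genes Tnpo1 and Ipo7 were the 2 of 45 that were at least 2-fold higher (4.44%), where 6.62% of all genes compared were. None was at least 2-fold lower, where 6.14% of all genes were. At a limit of 1.5-fold, 11 genes were higher (24.4%, against 17.8% of all genes) and 2 were lower (4.44%, against 15.2% of all genes). A log2 ratio above 0 was found in 35 of 45, or 77.8%, against 54.8% of all genes. Their log2 ratios had a median of 0.22 and quartiles of 0.065 and 0.52. Over all genes compared the median was 0.071 and the quartiles were -0.33 and 0.44. The 21 pore proteins compared had a median of 0.27 and the 24 carriers and Ran cycle genes one of 0.21. The 48 genes summed to 1508 FPKM with Nutlin-3a against 1531 with DMSO, and the abundant Ranbp1 alone was 416 against 566 FPKM. These shares moved with the GC content of the transcripts, as given further down.

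**Figure D1:**
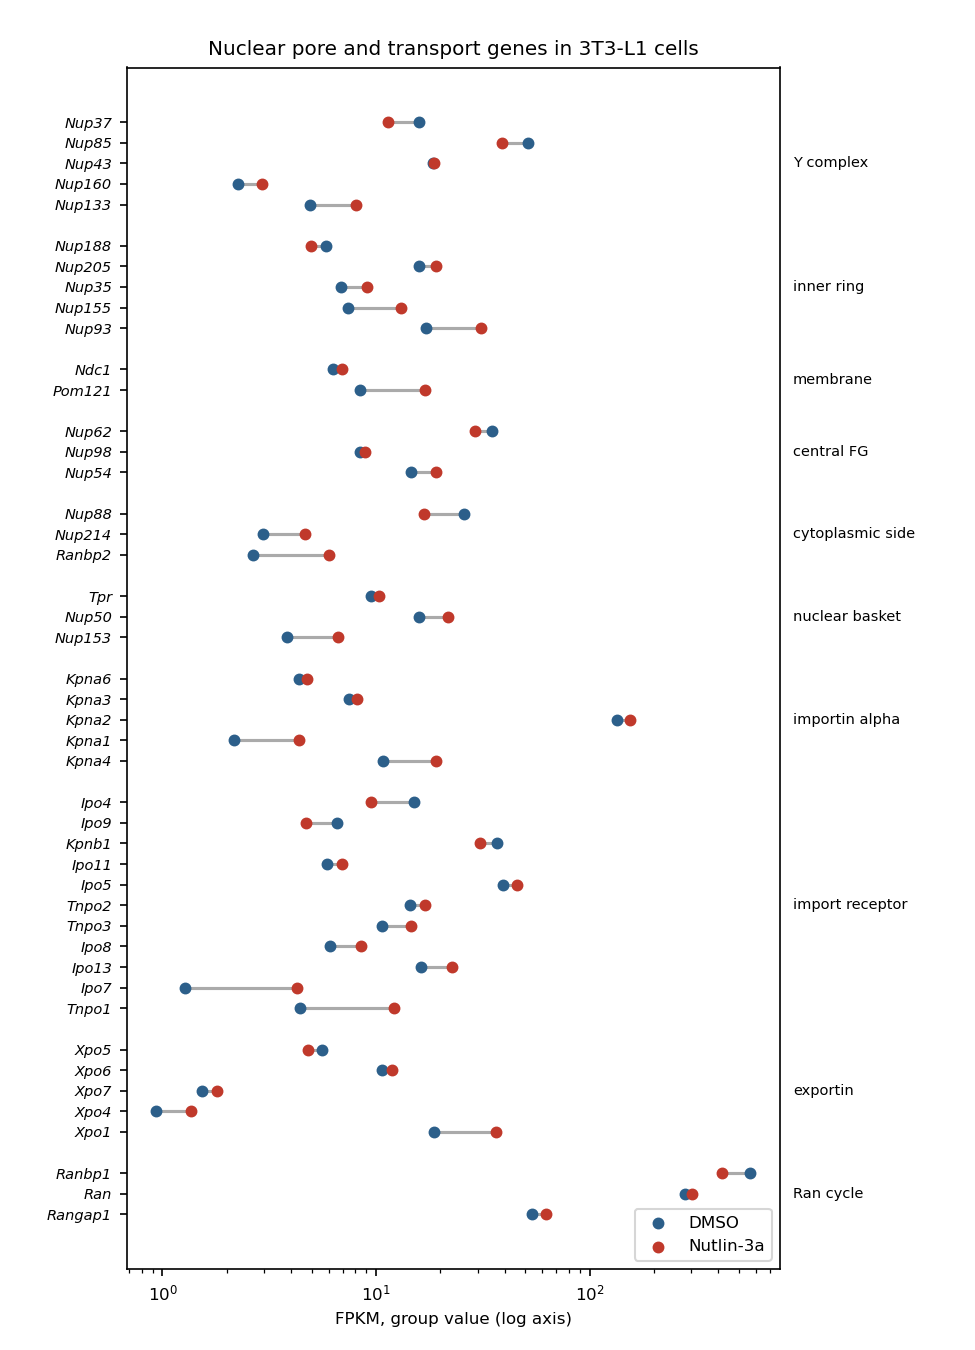
FPKM of the 45 genes compared in each treatment group (log axis), 1 row per gene, ordered by role and ratio. Each point is the authors' single group value, so no error bars exist; Ranbp1, Ran and Kpna2 lie above 100 FPKM in both groups, and Tnpo1 and Ipo7 show the widest gaps.

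The start-site windows of 8 genes are shown: those of the 5 highest log2 ratios, Tnpo1, Ipo7, Ranbp2, Pom121 and Xpo1, and of the 3 genes above 100 FPKM in both groups, Ranbp1, Ran and Kpna2. They let the letters before the start be read beside the ratios. Each runs from 250 bases before to 50 bases after a start in RefSeq (GRCm38.p6), 5′ to 3′ on the gene's strand. The windows of the first 5 genes are, in that order, chr13:98926335-98926634 (minus strand), chr7:110018065-110018364 (plus strand), chr10:58446602-58446901 (plus strand), chr5:135394497-135394796 (minus strand) and chr11:23255791-23256090 (plus strand). Those of the other 3 are chr16:18248645-18248944 (minus strand), chr5:129019906-129020205 (plus strand) and chr11:106999476-106999775 (minus strand). Capitals mark matches, on either strand, to the CHR element of cell cycle genes (TTTGAA), E2F motifs (TTCCCGC or TTGGCGC), the NF-Y box (CCAAT) and the NRF1 consensus palindrome.
Tnpo1: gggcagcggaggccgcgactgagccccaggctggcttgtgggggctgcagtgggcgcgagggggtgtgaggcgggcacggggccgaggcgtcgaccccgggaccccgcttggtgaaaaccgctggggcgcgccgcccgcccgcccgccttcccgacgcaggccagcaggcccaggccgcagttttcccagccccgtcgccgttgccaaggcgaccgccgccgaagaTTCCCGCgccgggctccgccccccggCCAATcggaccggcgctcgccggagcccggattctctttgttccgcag
Ipo7: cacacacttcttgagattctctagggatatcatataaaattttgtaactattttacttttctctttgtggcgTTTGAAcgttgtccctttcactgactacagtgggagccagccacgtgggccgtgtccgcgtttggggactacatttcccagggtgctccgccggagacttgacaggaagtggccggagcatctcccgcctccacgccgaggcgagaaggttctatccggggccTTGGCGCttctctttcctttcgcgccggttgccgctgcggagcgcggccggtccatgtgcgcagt
Ranbp2: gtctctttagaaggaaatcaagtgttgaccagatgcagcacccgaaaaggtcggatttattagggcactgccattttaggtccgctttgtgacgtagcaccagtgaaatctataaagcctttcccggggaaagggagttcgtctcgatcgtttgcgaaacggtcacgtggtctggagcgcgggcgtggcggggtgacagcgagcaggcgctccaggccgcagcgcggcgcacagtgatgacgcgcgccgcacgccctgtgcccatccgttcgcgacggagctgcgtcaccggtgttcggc
Pom121: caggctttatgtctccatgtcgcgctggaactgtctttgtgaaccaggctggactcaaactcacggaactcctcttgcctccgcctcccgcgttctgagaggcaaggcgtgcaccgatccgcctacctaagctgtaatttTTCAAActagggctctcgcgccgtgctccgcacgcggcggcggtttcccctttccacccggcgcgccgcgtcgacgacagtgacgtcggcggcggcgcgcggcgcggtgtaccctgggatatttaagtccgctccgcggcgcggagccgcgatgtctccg
Xpo1: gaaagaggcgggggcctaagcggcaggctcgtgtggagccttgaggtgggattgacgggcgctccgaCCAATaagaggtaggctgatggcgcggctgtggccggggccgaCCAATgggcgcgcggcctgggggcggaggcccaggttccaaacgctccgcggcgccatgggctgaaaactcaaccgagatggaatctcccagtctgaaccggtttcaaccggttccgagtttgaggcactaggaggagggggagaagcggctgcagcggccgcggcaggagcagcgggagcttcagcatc
Ranbp1: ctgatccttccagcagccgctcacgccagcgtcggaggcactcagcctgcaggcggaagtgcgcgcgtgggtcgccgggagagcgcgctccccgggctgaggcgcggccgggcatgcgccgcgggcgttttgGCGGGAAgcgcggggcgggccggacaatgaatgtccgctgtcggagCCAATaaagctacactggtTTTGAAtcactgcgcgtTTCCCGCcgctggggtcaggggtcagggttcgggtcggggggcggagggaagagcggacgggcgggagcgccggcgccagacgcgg
Ran: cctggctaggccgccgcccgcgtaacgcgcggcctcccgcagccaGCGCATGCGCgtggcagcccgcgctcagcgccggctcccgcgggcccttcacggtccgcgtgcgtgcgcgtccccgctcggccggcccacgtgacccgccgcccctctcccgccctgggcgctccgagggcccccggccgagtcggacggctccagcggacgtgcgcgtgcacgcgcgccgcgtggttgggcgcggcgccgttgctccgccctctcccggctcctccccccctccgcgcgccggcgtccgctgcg
Kpna2: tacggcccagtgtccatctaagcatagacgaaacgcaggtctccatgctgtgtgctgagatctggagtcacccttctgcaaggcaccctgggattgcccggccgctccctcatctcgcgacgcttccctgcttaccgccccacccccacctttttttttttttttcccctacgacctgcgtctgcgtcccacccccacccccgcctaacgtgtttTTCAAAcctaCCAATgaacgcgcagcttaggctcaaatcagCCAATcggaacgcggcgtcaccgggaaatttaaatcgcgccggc
In Tnpo1 an E2F match begins 24 bases before the start and a CCAAT box 2 bases after it. A further RefSeq window of Tnpo1, at a start 35342 bases from that of the listed model, holds no match and is not shown. In Ipo7 a CHR match begins 178 bases and an E2F match 15 bases before the start. Ranbp2 holds no match to these motifs, and Pom121 holds a CHR match 110 bases before the start. Xpo1 holds a pair of CCAAT boxes 183 and 140 bases before it. Kpna2 holds a CHR match at 35 bases and a CCAAT box at 25 bases before the start, and a further box 6 bases after it. Ranbp1 holds E2F matches at 118 and 36 bases, a CCAAT box at 72 bases and a CHR match at 53 bases before the start. Ran holds an NRF1 match 205 bases before it.

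Import receptors of the importin beta family held the widest range. Tnpo1 encodes transportin 1, which imports hnRNP proteins through their proline-tyrosine signals. It had 12.1 FPKM with Nutlin-3a and 4.39 FPKM with DMSO, 2.75-fold higher with a log2 ratio of 1.28 that lies at percentile 96.3 of all genes compared. One transcript carried nearly all of it (12.1 against 4.37 FPKM), and the other had 0.00883 against 0.0185 FPKM. Ipo7 encodes importin 7, a carrier of ribosomal proteins and linker histones. It had 4.25 FPKM with Nutlin-3a and 1.27 FPKM with DMSO, 3.34-fold higher with a log2 ratio of 1.21. The DMSO value was low, and when a mean of at least 5 FPKM was required Ipo7 was not compared. With a pseudocount of 5 its log2 ratio was 0.56 and that of Tnpo1 0.86, both within the limit. A predicted gene, Gm6493, is 97.2% identical to the Tnpo1 transcript over 2656 bases and may share its reads. The listed gene models lie on chromosome 13 from 98842081 to 98926384 for Tnpo1 and on chromosome 7 from 110018425 to 110055114 for Ipo7 (mm10).

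The closest relatives of these receptors are given beside them. Tnpo1 and Ipo7 had the 2 highest log2 ratios of the 45 genes, so any relative among these had a lower one. Tnpo2, the transportin 2 gene, had 17.0 against 14.5 FPKM, so the level of Tnpo1 relative to Tnpo2 was 0.713 in Nutlin-3a and 0.304 in DMSO. Ipo8, the relative of Ipo7, had 8.50 against 6.08 FPKM, and Ipo7 relative to Ipo8 was 0.501 against 0.210. In both pairs the gene taken up for its high ratio had the lower DMSO level, which is the denominator of that ratio. In Nutlin-3a this gene remained the lower one. Both listed transcripts of Tnpo2 were slightly higher, at 9.08 against 8.29 FPKM and 7.87 against 6.17 FPKM. The listed model of Tnpo2 overlaps the coding gene Fbxw9, so reads of Fbxw9 could enter the Tnpo2 level. Tnpo3, which imports SR splicing factors, had 14.6 against 10.7 FPKM, and Ipo13, a receptor that carries cargo both ways, had 22.7 against 16.2 FPKM. Ipo5, an importer of ribosomal proteins, had 45.8 against 39.3 FPKM and was the most abundant receptor of this family in both groups. Ipo11 had 6.92 against 5.91 FPKM.

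Ipo4, Ipo9 and Kpnb1 were the 3 of this family with a log2 ratio below 0. Ipo4, an importer of histones H3 and H4, had 9.48 FPKM with Nutlin-3a and 15.1 FPKM with DMSO, a log2 ratio of -0.62 and the lowest of all 45 genes. Ipo9, an importer of histones H2A and H2B, had 4.69 against 6.56 FPKM. Kpnb1, importin beta 1, the receptor of classical nuclear localization signals, had 30.8 against 36.9 FPKM. Within the family 8 of 11 log2 ratios were above 0 (72.7%, against 54.8% of all genes), and the median was 0.22. Ipo11, among these 8, was at -0.013 after the correction for GC content given further down.

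Importin alpha adaptors link classical signals to Kpnb1. All 5 compared had a log2 ratio above 0, where 54.8% of all genes did, with a median of 0.21. After the correction for GC content given further down, Kpna3 was at -0.12. None was past 2-fold, where 6.62% of all genes were higher and 6.14% lower. Kpna2 made up most of the family, with 155 FPKM with Nutlin-3a and 134 FPKM with DMSO, 80.9% and 84.4% of the family's summed FPKM. Kpna4 had 19.2 against 10.7 FPKM, and its share was 10.0% against 6.78%. Kpna3, of the same subfamily as Kpna4, had 8.17 against 7.46 FPKM. Kpna1 had 4.35 against 2.15 FPKM, a 2.02-fold higher value that counts as within the limit on the log2(FPKM + 1) scale (0.76), and its relative Kpna6 had 4.78 against 4.34 FPKM. So in each of these pairs 1 adaptor differed by more than 1.5-fold and the other by less than 1.2-fold. Beside Kpna2, whose transcript is known to peak late in the cell cycle, 7 of 9 cycling genes had a log2 ratio below 0, with a median of -0.38. Over all genes compared 4671 of 10331 were below 0. Ccnb1 (13.3 against 12.6 FPKM) and Pcna (203 against 175 FPKM) were the 2 cycling genes above 0. Ccna2, the cyclin A2 gene (11.7 against 25.3 FPKM), was the only one of the 9 past 2-fold. The part of cell cycle position in the values of Kpna2 was not tested.

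Among exportins, Xpo1 stood out from the other 4. Xpo1, or CRM1, exports proteins with leucine-rich signals, p53 among its known cargoes, and had 36.5 FPKM with Nutlin-3a and 18.7 FPKM with DMSO. This is 1.96-fold higher, a log2 ratio of 0.93, and the gene's share of the summed exportin FPKM was 64.7% against 49.8%. Its gene model lies on chromosome 11 from 23256041 to 23297597 (mm10). Xpo6, the exporter of actin, had 11.9 against 10.7 FPKM, and Xpo5, the exporter of microRNA precursors, had 4.80 against 5.61 FPKM. Xpo7 (1.80 against 1.53 FPKM) and Xpo4 (1.36 against 0.937 FPKM) were near the lower limit for comparison. Relative to Kpnb1, Xpo1 was at 1.19 in Nutlin-3a and 0.505 in DMSO, so the order of these 2 main receptors differed between the groups.

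Ranbp1 and Ran were the most abundant of the 48 genes in both groups. None of the 3 Ran cycle genes passed 1.5-fold, where 17.8% of all genes were higher and 15.2% lower. Ran had 301 FPKM with Nutlin-3a and 280 FPKM with DMSO. Rangap1, which activates GTP hydrolysis by Ran, had 62.8 against 53.6 FPKM. Ranbp1, a cofactor of that reaction and a known E2F target, had 416 against 566 FPKM, a log2 ratio of -0.44. Predicted genes at least 95% identical over 500 bases or more exist for Kpna2 (3 genes), Ran, Ipo4, Nup35 and Nup54 (1 gene each), so these levels are uncertain to that extent. Ranbp1 thus lay above Ran in both groups, with Ran relative to Ranbp1 at 0.723 against 0.495. In the list of all 16709 symbols by FPKM, Ranbp1 ranked 260 in Nutlin-3a and 216 in DMSO.

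In the scaffold of the pore, genes of 1 complex lay on both sides of 0. The Y complex had a median log2 ratio of 0.021 over 5 genes. Nup133, at the tip of its stem, had 8.03 FPKM with Nutlin-3a and 4.89 FPKM with DMSO, and Nup160, in its long arm, had 2.92 against 2.26 FPKM. Nup85, of its short arm, had 38.9 against 51.2 FPKM. Nup37, which binds Nup160, had 11.4 against 15.8 FPKM, with both of its transcripts lower (10.3 against 13.3 and 1.14 against 2.54 FPKM). Nup43 had 18.7 against 18.4 FPKM. The inner ring lay higher, with a median of 0.35 and 4 of 5 above 0 (80%, against 54.8% of all genes). Nup93, which links the ring's layers, had 31.0 against 17.1 FPKM, a log2 ratio of 0.82, and Nup155 had 13.1 against 7.38 FPKM. Nup35 (9.07 against 6.88 FPKM) and the large adaptor gene Nup205 (19.2 against 15.8 FPKM) lay less far apart, and Nup188, its relative, had 4.98 against 5.81 FPKM. For Nup205 and Nup188 the only listed transcript was an assembled form that differs from the annotation.

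Pom121, a membrane nucleoporin needed to build new pores in interphase, had 17.0 FPKM with Nutlin-3a and 8.39 FPKM with DMSO, 2.03-fold higher with a log2 ratio of 0.94. Its one listed transcript was an assembled form that differs from the annotation, and 658 bases of the gene's longest annotated transcript also lie, at 100% identity, in that of the neighbouring Nsun5 (14.6 against 9.22 FPKM), so the level of Pom121 is uncertain. Ndc1, another membrane anchor, had 6.91 against 6.30 FPKM. In the central channel, Nup62 had 29.2 against 34.7 FPKM and its partner Nup54 had 19.1 against 14.6 FPKM. The only listed transcript of Nup54 was likewise an assembled form that differs from the annotation. Nup98, whose precursor also yields a subunit of the Y complex, had 8.88 against 8.44 FPKM, and its main transcript held 91.8% and 88.2% of this. The median over these 3 genes was 0.065. The listed models of Nup62, Nup88 and Tpr reach 21075, 98297 and 47721 bases beyond the RefSeq gene, over neighbouring coding genes, so reads of neighbours could enter their values. The same holds for Tnpo2, by a net 9493 bases with Fbxw9 in the model. It also holds for Xpo7, by a net 3644 bases with Dok2 and Npm2 in the model.

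On the cytoplasmic face the partners went opposite ways. Ranbp2, the large filament protein that binds SUMO-modified RanGAP1, had 5.999 FPKM with Nutlin-3a and 2.65 FPKM with DMSO. Its plain fold was 2.26, and its log2 ratio of 0.94 lies within the limit. Nup214 had 4.67 against 2.94 FPKM. Nup88, which forms a complex with Nup214, had 16.8 against 25.7 FPKM, a log2 ratio of -0.59. The main annotated transcript of Nup88 had 12.3 against 16.9 FPKM, and an assembled form that differs from the annotation had 3.52 against 8.38 FPKM. Nup214 relative to Nup88 was therefore 0.278 in Nutlin-3a and 0.114 in DMSO. In the nuclear basket all 3 log2 ratios were above 0, where 54.8% of all genes were. Nup153 had 6.62 against 3.84 FPKM, and Nup50, a cofactor of importin alpha release, had 21.6 against 15.8 FPKM. Tpr, the basket's filament protein, had 10.3 against 9.48 FPKM, and was at -0.10 after the correction for GC content given further down.

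**Figure D2:**
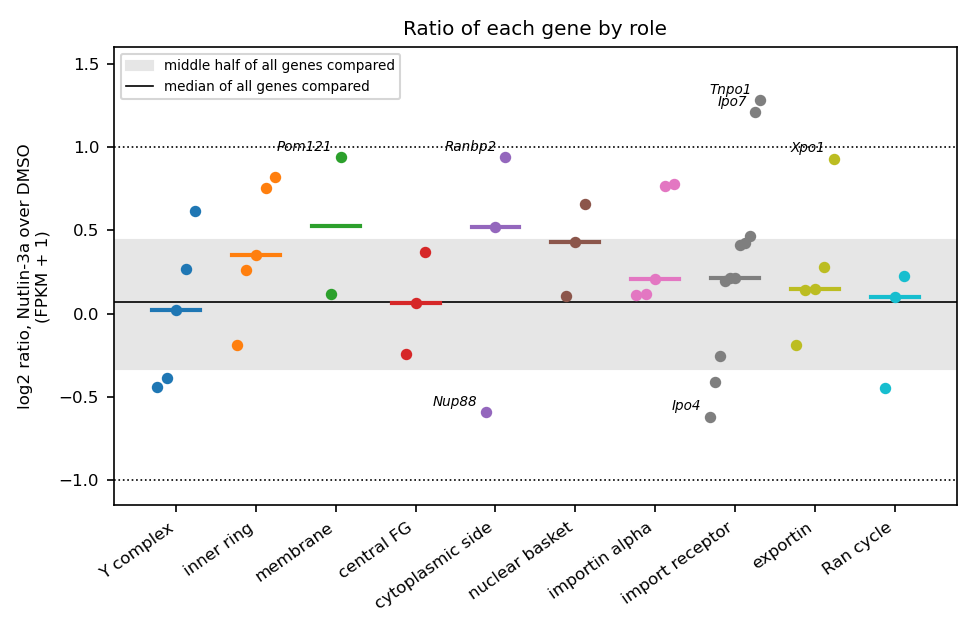
Log2 ratio of Nutlin-3a over DMSO (FPKM + 1) for each of the 45 genes, by role; bars are the median of a role, the line and grey band are the median and quartiles of all 10331 genes compared, and dotted lines mark 2-fold. Tnpo1 and Ipo7 lie above the upper dotted line, none lies below the lower one, and most roles hold genes on both sides of 0.

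A list of 27 further transport and pore genes that the symbols above do not take was described in the same way. Of these 24 were listed and 23 compared, 1 was at least 2-fold higher (4.35%, against 6.62% of all genes), none was at least 2-fold lower (6.14% of all genes), and 16 had a log2 ratio above 0 (69.6%, against 54.8% of all genes). The median was 0.28, against 0.071 over all genes. Aaas encodes ALADIN, a pore protein held at the membrane by Ndc1, and had 46.0 FPKM with Nutlin-3a and 12.1 FPKM with DMSO, 3.81-fold higher. Its log2 ratio of 1.85 exceeds that of every one of the 45 genes. Others are given here as chosen after their values were seen. Rcc1, which loads Ran with GTP, had 24.4 against 15.5 FPKM, Cse1l, the exporter of importin alpha, had 21.3 against 16.8 FPKM, and Nutf2, which imports Ran, had 237 against 255 FPKM.

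The ratios moved with the base composition and length of the transcripts. GC content of the longest GENCODE M21 transcript had a median of 46.0% over the 45 genes and 49.9% over the 9935 genes compared that have one, and the transcripts were longer, with a median of 5081 against 3250 bases. Genes were placed in 8 classes of equal size by GC content, whose median log2 ratio went from 0.24 in the lowest class to -0.17 in the highest. Of the 45 genes 8 lay in the lowest class, with a median of 0.86, namely Tnpo1, Ipo7, Xpo1, Ranbp2, Kpna1 and Kpna4 at 0.76 or above, Nup35 at 0.35 and Kpna3 at 0.12. The relation was not even across classes: the 9 genes of the second lowest class had a median of 0.15 against 0.21 for all genes there, and the 3 of the highest GC class had 0.47 against -0.17. Across the 45 genes Spearman's rho of the log2 ratio with GC content was -0.33, and with transcript length it was 0.38. Across all genes the same values were -0.22 and 0.12. These describe genes of the same 2 group values, which are not independent. After the class median was taken off, 27 of 45 genes were above 0 (60.0%), against 4967 of 9935 over all genes, the median was 0.072, Tnpo1 was at 1.04 and Ipo7 at 0.97, just inside the limit, while Pom121, with 57.6% GC, was at 1.11. By length, 26 of the 45 genes fell in the longest of 4 length classes of equal size, with a median log2 ratio of 0.35 against 0.16 for all genes there, and the 4 in the shortest class had a median of -0.21 against -0.045.

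**Figure D3:**
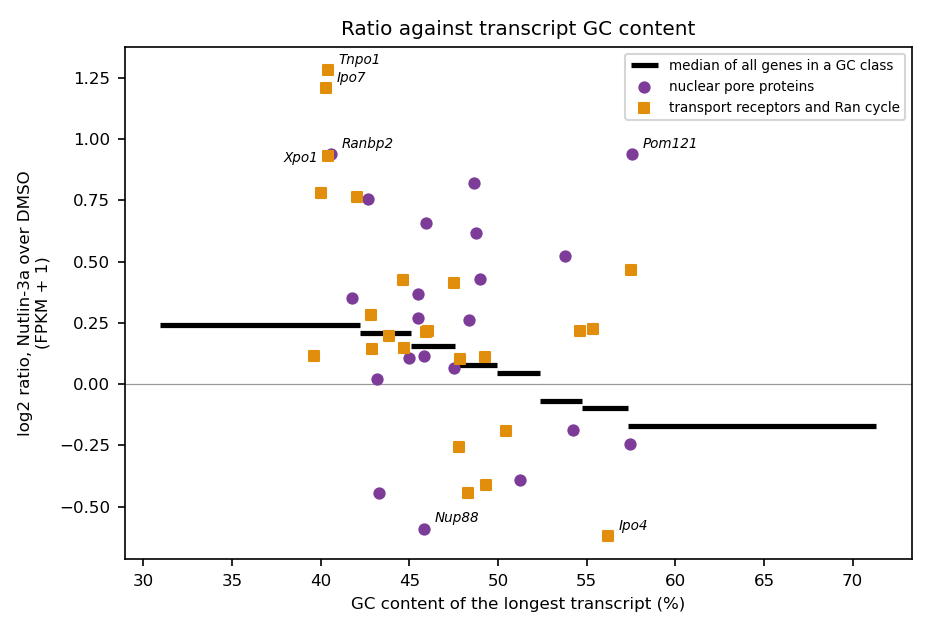
Log2 ratio of Nutlin-3a over DMSO (FPKM + 1) against the GC content of the longest annotated transcript for the 45 genes (circles, pore proteins; squares, carriers and Ran cycle); black bars are the median of all genes in each of 8 GC classes. Tnpo1, Ipo7, Xpo1 and Ranbp2 lie between 40.3% and 40.6% GC, and Pom121 lies apart at 57.6%.

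Start-site windows were found in RefSeq for 39 of the 48 genes, 46 windows in all. Their median GC content was 64.2%, against 61.0% in windows of the genes compared and 52.7% in all windows of the reference. The part of this in the motif shares below was not tested. Windows of the same gene can overlap, so a match can count more than once, as for Nup37 and Ipo9. Kpna7 and Nup210 have windows here though they were not compared. The CHR letters TTTGAA occurred in 13 of the 46 windows, or 28.3%, against 11.7% of 10129 windows of the genes compared. Among the 13 are both windows of Nup37, with the same matches, and that of Kpna7. The NRF1 consensus palindrome occurred in 4, those of Nup50, Nup62, Ran and Xpo5, or 8.70% against 2.20%. CCAAT occurred in 24 (52.2% against 38.1%), and these matches may overlap other motifs. The E2F letters TTCCCGC occurred in 8.70% against 8.47%, TTGGCGC in 2.17% against 4.43%, and the ETS letters CTTCCGG in 13.04% against 18.9%. The p53 half-site consensus, added after the values were seen, was matched in 1 window of Nup93 (2.17% against 6.72%). That window belongs to a start 52246 bases from the start of the listed Nup93 model, and the match begins 40 bases after it. The window of Nup93 nearer the model start holds no such match. Over all 32851 windows of the reference the shares were 17.9% for CHR, 0.971% for NRF1, 37.4% for CCAAT, 4.60% and 2.45% for E2F, 8.86% for ETS and 8.36% for the p53 half-site. Among the 37 genes with a window and a ratio, the 11 with a CHR match had a median log2 ratio of 0.12 and the 26 without one 0.39. Over all genes with a window these medians were 0.032 and 0.082. Lower medians with a match were not particular to CHR. They were -0.044 with and 0.26 without for NRF1 (4 genes with a match), and 0.20 and 0.37 for CCAAT (20 genes). Over all genes both went the other way, at 0.19 and 0.072 for NRF1 and 0.10 and 0.053 for CCAAT. Higher medians with a match were found for TTCCCGC (0.62 and 0.22, 3 genes) and ETS (0.37 and 0.22, 5 genes). TTGGCGC and the p53 half-site were each matched in 1 gene. Matches are a description of letters in these windows, and binding was not measured.

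**Figure D4:**
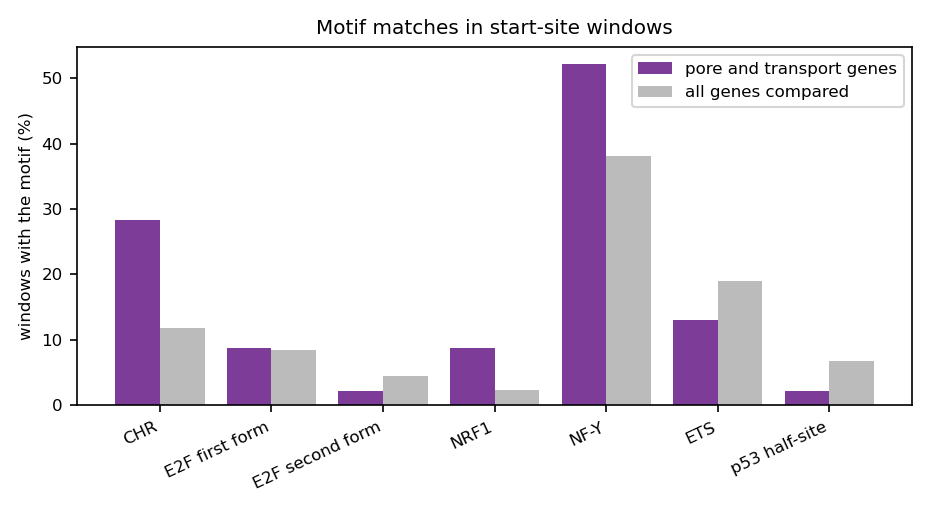
Share of start-site windows (250 bases before to 50 after the start) with at least 1 match to each motif on either strand, for 46 windows of the pore and transport genes and 10129 windows of all genes compared. The CHR bar is at 28.3% against 11.7%, and the p53 half-site bar at 2.17% against 6.72%.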

How the data were processed

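Total RNA was extracted with TRIzol and made into libraries by Illumina protocols, per the labels' protocols. The submitters' processing notes list TopHat2 2.0.11 and build mm10. How FPKM was computed, against which annotation, and how replicates were combined is not given in the sources used here. For 24746 transcripts the authors deposited 1 FPKM value per group, and columns headed as fold expression that hold log2 of the same group's FPKM (largest deviation 0.00714), which were not used. Column prefixes NUT and DSM were read as Nutlin-3a and DMSO. Another 4294 lines were blank. The depth of the libraries is unknown from these values, so no interval is given.

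FPKM was summed per symbol, and log2 ratios were taken with a pseudocount of 1 over genes with a mean of at least 1 FPKM (Python 3.11.15, pandas 2.3.3). With 1 value a group, no test across libraries, no leave-one-out and no replicate block could be run. The genes, roles and lists were chosen with earlier results of these data known. Every gene is described under its role; a gene that the symbol rule takes is not reported here. Members were aligned to the longest GENCODE M21 transcript of every other gene with minimap2 2.31 to find copies, at 95% identity or more over at least 500 bases. Starts are printed counted from 1. Alternatives were other pseudocounts, filters, scalings, limits, transcript choices and a correction for GC content.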

Additional observations from a re-analysis of the deposited data

How the results depend on the processing

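No paired analysis was possible because the table holds 1 value per group and none per library, and leaving out a replicate was not run for the same reason. The count of genes at least 2-fold higher, 2 in the report, was 4 and 3 with pseudocounts of 0.1 (Ranbp2 and Pom121 added) and 0.5 (Ranbp2 added). It was 0 with a pseudocount of 5, and 1 with a mean of at least 5 FPKM (Tnpo1, as Ipo7 was not compared). At a limit of 1.5-fold 11 were higher and 2 were lower (4.44% lower, against 15.2% of all genes). Under these settings 9.66%, 8.04%, 2.41%, 5.68% and 17.8% of all genes compared were higher, against 8.89%, 6.67%, 0%, 2.70% and 24.4% of the pore and transport genes. The count stayed at 2 (6.15% of all genes) after the correction for GC content, but as Tnpo1 and Pom121 in place of Tnpo1 and Ipo7. At the 2-fold limit none was lower under any alternative run, where between 2.82% (pseudocount of 5) and 8.18% (pseudocount of 0.1) of all genes were.

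The median log2 ratio of the 45 genes was 0.23 and 0.17 with pseudocounts of 0.1 and 5, 0.21 with a mean of at least 5 FPKM, 0.14 with the median of all genes set to 0, 0.20 and 0.19 after upper-quartile and quantile scaling, and 0.072 after the correction for GC content. That of the further transport genes was 0.29 and 0.19, 0.25 with no filter and 0.18 with a mean of at least 5 FPKM, 0.21, 0.27 and 0.22, and 0.12 under the same settings. The correction for GC content turned the sign of 8 genes with small ratios, namely Ipo11, Kpna3, Ndc1, Nup43, Nup98, Tpr, Xpo6 and Xpo7; setting the median of all genes to 0 turned Nup43 and Nup98, and quantile normalization turned Xpo7.

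Alternatives chosen after seeing the data left genes out. Without the 7 genes with near-identical copies, 1 of 38 was higher (Ipo7, 2.63%, against 6.62% of all genes). Without the 12 whose listed model overlaps another coding gene, 1 of 33 was higher (Ipo7, 3.03%, against 6.62% of all genes). The median log2 ratio of these 33 was 0.26. Tnpo1 belongs to both sets left out. The copies of Tnpo1, Kpna2, Ran, Ipo4, Nup35 and Nup54 are predicted genes that the table does not list, and reads shared with them may have been counted either way.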
